A study of Homo sapiens with 3 samples.

Results

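The regions described here are the places where ARID1B was found close to an annotated end of a protein-coding gene in HEK293FRT cells, which descend from HEK293, an established line grown from human embryonic kidney. The series holds 2 ARID1B chromatin immunoprecipitation (ChIP-seq) replicates and 1 input sample, with no treatment or genotype change given in the labels. The input was not analysed here. Overlapping peaks of both lists were joined into 2289 regions on chromosomes 1 to 22 and X, and a region was kept when its nearest base lay within 1000 bp of either end of a protein-coding gene (build hg38, RefSeq genes). This gave 303 regions (13.2% of 2289, exact Clopper-Pearson 95% interval 11.9 to 14.7), of which 164 were found in both replicates, 120 in replicate 2 alone and 19 in replicate 1 alone. They reached 376 of 19821 protein-coding genes, or 1.90%; regions of both replicates reached 209 genes (1.05%), the replicate 1 list 229 (1.16%) and the replicate 2 list 357 (1.80%). The lists held 1792 and 1820 peaks with median scores of 74 and 75, and the number of reads behind a peak is unknown. Whether separate cultures gave the replicates is not stated. Cell identity cannot be read from peak lists, so the labelled cell type was not checked.

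ARID1B belongs to the BAF (SWI/SNF) complexes and carries an ARID domain that binds DNA. These complexes use ATP to slide and evict nucleosomes and so open chromatin at enhancers and promoters. A promoter is the stretch just before a transcription start, where general transcription factors and factors such as NF-Y, which binds the CCAAT box, and SP1, which binds the GC box, assemble. Many human promoters are shared by a pair of genes that point away from each other, and in gene-dense parts of the genome the transcription end of a gene can lie close to the start of its neighbour.

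The promoters under the highest-scoring start regions are shown first, because they share a short motif. Each line holds the 250 bases before the annotated start, read 5′ to 3′ in the direction of transcription (RefSeq, GRCh38.p14), and capitals mark CCAAT or its reverse complement ATTGG. The first 8 promoters belong to the first 8 start regions whose promoter window was covered, in the order of the lower of the region's score percentiles in the lists, with 1 promoter printed where a region covered a pair.
SP2: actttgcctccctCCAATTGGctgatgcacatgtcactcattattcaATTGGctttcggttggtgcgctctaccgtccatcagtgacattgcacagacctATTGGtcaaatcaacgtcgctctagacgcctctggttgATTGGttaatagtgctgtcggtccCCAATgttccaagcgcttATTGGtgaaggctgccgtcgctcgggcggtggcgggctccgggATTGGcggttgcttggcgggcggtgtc
DNM2: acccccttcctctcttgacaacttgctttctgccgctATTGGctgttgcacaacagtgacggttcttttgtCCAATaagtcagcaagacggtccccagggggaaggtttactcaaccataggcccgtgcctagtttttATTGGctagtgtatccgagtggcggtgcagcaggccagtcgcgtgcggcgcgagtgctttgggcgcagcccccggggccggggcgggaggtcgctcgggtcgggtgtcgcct
SP1: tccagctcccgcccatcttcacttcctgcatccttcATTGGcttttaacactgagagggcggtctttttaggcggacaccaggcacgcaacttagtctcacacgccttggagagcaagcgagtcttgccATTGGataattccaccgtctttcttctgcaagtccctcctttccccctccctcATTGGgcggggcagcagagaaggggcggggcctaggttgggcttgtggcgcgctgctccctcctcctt
EVI5L: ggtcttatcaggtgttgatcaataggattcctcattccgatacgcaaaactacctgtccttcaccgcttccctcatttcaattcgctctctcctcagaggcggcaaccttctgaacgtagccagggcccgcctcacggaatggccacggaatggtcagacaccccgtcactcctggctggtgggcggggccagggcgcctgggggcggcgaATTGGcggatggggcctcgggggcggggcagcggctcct
CIC: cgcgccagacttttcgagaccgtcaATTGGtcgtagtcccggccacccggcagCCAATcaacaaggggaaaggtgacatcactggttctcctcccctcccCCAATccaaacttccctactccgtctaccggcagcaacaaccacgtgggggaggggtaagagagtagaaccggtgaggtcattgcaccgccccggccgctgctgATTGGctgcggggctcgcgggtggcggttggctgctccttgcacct
DRC3: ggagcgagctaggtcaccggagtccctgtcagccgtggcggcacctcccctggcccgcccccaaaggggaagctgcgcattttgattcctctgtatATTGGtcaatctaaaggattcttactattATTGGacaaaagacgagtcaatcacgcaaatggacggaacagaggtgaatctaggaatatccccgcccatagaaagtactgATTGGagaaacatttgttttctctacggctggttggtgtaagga
RFX1: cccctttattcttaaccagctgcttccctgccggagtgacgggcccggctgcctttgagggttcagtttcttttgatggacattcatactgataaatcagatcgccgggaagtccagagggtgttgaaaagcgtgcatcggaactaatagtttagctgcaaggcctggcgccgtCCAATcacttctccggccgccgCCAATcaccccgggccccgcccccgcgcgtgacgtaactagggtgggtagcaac
NAIF1: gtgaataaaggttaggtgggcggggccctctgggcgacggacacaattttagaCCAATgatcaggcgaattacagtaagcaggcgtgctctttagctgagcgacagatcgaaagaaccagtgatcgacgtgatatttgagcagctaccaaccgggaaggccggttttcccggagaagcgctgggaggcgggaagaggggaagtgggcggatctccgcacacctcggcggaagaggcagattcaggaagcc
These windows lie at chr17:47895986-47896235 (SP2, plus strand), chr19:10717829-10718078 (DNM2, plus), chr12:53379926-53380175 (SP1, plus), chr19:7829968-7830217 (EVI5L, plus), chr19:42268280-42268529 (CIC, plus), chr17:17972563-17972812 (DRC3, plus), chr19:14006321-14006570 (RFX1, minus) and chr9:128067321-128067570 (NAIF1, minus). The RFX1 window stands before an annotated start 496 bp from the outermost start of that gene. SP2, a transcription factor gene, held 8 matches in its window, CIC, a repressor gene, held 4, and DNM2, SP1 and DRC3 held 3 each. RFX1 held 2, and EVI5L and NAIF1 held 1 each. In SP2 the first pair of matches overlaps, because CCAATTGG reads as a match on both strands, and each was counted.

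For contrast, chosen after their values were seen, the windows of HOXA9 (chr7:27165538-27165787, minus strand), a body-axis patterning gene, TCF3 (chr19:1652616-1652865, minus), an E-box factor gene, and FOS (chr14:75278578-75278827, plus), an AP-1 gene, are printed in the same way.
HOXA9: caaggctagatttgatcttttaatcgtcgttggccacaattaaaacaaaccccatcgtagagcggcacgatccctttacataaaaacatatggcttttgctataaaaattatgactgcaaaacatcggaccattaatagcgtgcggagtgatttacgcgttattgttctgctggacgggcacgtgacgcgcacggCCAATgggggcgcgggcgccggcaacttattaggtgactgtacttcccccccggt
TCF3: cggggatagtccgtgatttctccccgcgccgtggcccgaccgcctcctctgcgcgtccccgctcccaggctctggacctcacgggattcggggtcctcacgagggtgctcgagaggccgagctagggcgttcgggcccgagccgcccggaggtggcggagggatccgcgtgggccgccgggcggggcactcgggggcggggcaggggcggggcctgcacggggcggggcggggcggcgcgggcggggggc
FOS: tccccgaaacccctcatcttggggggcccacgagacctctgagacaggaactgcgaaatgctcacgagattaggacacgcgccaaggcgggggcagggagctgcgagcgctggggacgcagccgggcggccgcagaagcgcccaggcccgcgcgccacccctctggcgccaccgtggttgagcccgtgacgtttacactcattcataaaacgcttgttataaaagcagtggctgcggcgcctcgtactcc
HOXA9 held 1 match, and TCF3 and FOS held 0. TCF3 instead held 8 GC boxes (GGGCGG or CCGCCC). Scores were 205 and 264 at HOXA9, 184 and 284 at TCF3, and 41 and 122 at FOS in replicates 1 and 2. By its scores TCF3 stood among the first 25 covered promoter windows, and it was the only one of these 25 with no CCAAT match.

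Promoter windows were available for 15812 protein-coding genes, 1 for each gene, and 13792 of them stood at the outermost annotated start. A region of the set covered at least 1 base of 173 windows. Of these 173, 128 held a CCAAT match on either strand (74.0%, exact 95% interval 66.8 to 80.4), against 34.4% of all 15812. Which promoters are active in these cells was not known, so the 15812 were not matched for activity. Windows with 3 or more matches made up 45.1% of the covered windows and 3.71% of all windows, and the mean number of matches was 2.17 against 0.514. Among the 104 windows covered by a region of both replicates 79.8% had a match, and among the 65 covered by a region of replicate 2 alone 66.2%. Replicate 1 alone covered 4 windows, of which 2 had a match. Of the first 25 covered windows in the order of scores 24 had a match. The 173 windows came from 157 regions, so they are not all separate promoters. Among the first 25, ANKHD1 and its readthrough gene had the same window, and some pairs of genes shared a region.

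Other motifs were nearer to their share in all promoters. They were searched on both strands, independently of each other and with overlaps allowed. The GC box was present in 78.0% of covered windows and 55.8% of all windows. The ETS core CCGGAA was found in 20.8% against 19.2%, and the E box CACGTG in 9.25% against 7.79%. The TATA box string TATAAA was found in 6.94% against 9.36%, the TEAD string GGAATG in 8.67% against 10.2%, the AP-1 string TGANTCA in 3.47% against 5.00%, and the NRF1 motif in 5.20% against 7.67%. Median GC content was 62.4% in covered windows and 62.0% in all. A match is a run of letters, not a shown binding site, and windows of neighbouring genes can overlap; over the 143 covered windows that overlap no other gene's window, 70.6% had a CCAAT match.

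**Figure D1:**
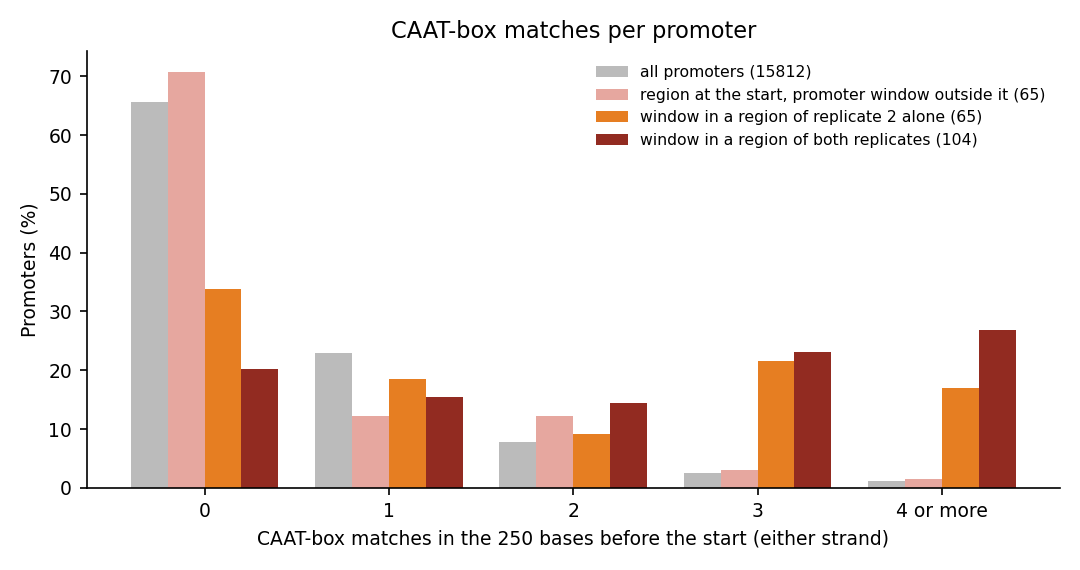
Share of promoters (y axis, %) by the number of CAAT-box matches in the 250 bases before the start on either strand (x axis). Bars stand for all 15812 promoters, for 65 genes with a region at the start that leaves the promoter window uncovered, for 65 windows in regions of replicate 2 alone and for 104 windows in regions of both replicates; windows with 3 or more matches are 3.71% of all and 50% of those in regions of both replicates.

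Another 65 genes were reached at the start by a region that did not touch the promoter window. Of these, 19 (29.2%, exact 95% interval 18.6 to 41.8) held a CCAAT match in the window, and the interval holds the 34.4% of all promoters. The 65 genes include HES1, a Notch target gene, with a region 915 bp before its start and scores of 140 and 127. Within covered windows 344 of 375 CCAAT matches (91.7%) lay inside the region, while the regions covered 79.6% of the bases. With positions before the start written as negative, the matches lay at a median of -125 bp (quartiles -193 and -74 bp), against -99 bp (-165 and -62 bp) over all promoters.

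Scores were then set beside the number of matches, taking for each region its covered window with the most. A region that covered several windows had more chances of a high count. Regions at a pair of starts had median scores of 112 in replicate 1 and 98 in replicate 2, against 69 and 73 at 1 gene. The number of matches and the number of starts were not separated. The 67 regions with 3 or more matches had median scores of 85.5 in replicate 1 (46 regions) and 92.0 in replicate 2 (66 regions), and 67.2% of them were found in both. The 43 regions with 0 matches had medians of 51.0 (22 regions) and 60.0 (41 regions), and 46.5% were found in both. The steps between did not follow one order in replicate 1, where the medians were 92 for 1 match and 58.5 for 2; in replicate 2 they were 75 and 76. High scores without a CCAAT match reached 184 in replicate 1 and 284 in replicate 2, both at TCF3. Regions of a library share their source and are not replicates, so these medians are given without a test.

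The direction of transcription was known for 15813 of the protein-coding genes, and it separates starts from ends. Of the 303 regions 212 (70.0%, exact 95% interval 64.5 to 75.1) reached a transcription start, 48 (15.8%) reached transcription ends only, and 43 (14.2%) could not be placed because no direction was at hand for a gene they reached. In genes, 238 of 15813 (1.51%) had a region at the start and 89 (0.563%) at the end. Both ends offer a window of the same length, so the counts can be read side by side. Some regions counted at an end also reached the start of another gene.

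Regions at starts sat just before the start. Over 238 pairs of a region and a start, the region's centre lay at a median of -139 bp (quartiles -226 and 20 bp, negative before the start), 74.4% of centres were before it, and in 94 of the 238 pairs (39.5%) the region contained the start itself. At DNM2, which encodes the membrane-scission GTPase dynamin 2, the centre lay at -238 bp, at SP1 at -346 bp and at SP2 at -106 bp. At CIC the region was 999 bp wide and its centre lay 286 bp after the start. Transcription ends were different in position. Over 95 pairs the centre lay at a median of 493 bp after the end (quartiles -122 and 802 bp), and 10.5% of centres were within 200 bp of the end, against 47.5% at starts. These pairs include regions that also reached the start of another gene, as did 22 of the regions at 2 genes. At RPL26 the region contained the start of KRABD2. The median therefore does not describe regions at ends only. A readthrough gene at HOXA9 was also counted beside HOXA9 itself.

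**Figure D2:**
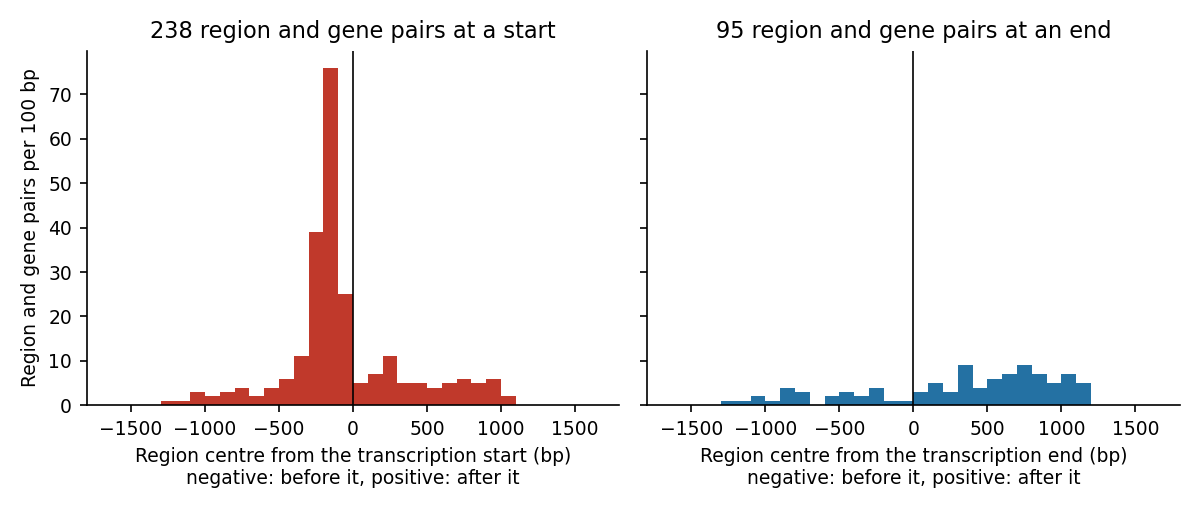
Number of region and gene pairs per 100 bp (y axis) by the distance of the region's centre from the transcription start (left) or the transcription end (right) in bp, negative before and positive after it in the direction of transcription. The 238 pairs at starts have a median of -139 bp, and the 95 pairs at ends spread with a median of 493 bp after the end. Some pairs at ends belong to regions that also reached the start of another gene.

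Start regions held 4 of the 5 highest places in the order of scores. SP2 came first with scores of 1210 in replicate 1 and 1461 in replicate 2, DNM2 had 990 and 1089, SP1 635 and 848, EVI5L 632 and 689, and CIC 477 and 815. Also at starts were the shared region of TOM1L2 and DRC3 (443 and 715), that of RFX1, a transcription factor gene (425 and 640), and that of RAB5B, an endosomal GTPase gene (364 and 601). These values fall off steeply: the median over the 126 start regions with a replicate 1 score was 69, and over the 206 with a replicate 2 score 73. Further down the same order stood HNRNPC, a gene of an RNA-binding protein of nascent transcripts (272 and 333), OSBP, a sterol-binding protein gene with 5 CCAAT matches (282 and 284), CALM3, a calmodulin gene (247 and 248), and PRKACA, the gene of a catalytic subunit of protein kinase A (186 and 203). SMOC1, ARRDC4, ZNF687 and the pair TBC1D10B and MYL11 lay between 185 and 334 in replicate 1.

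**Figure D3:**
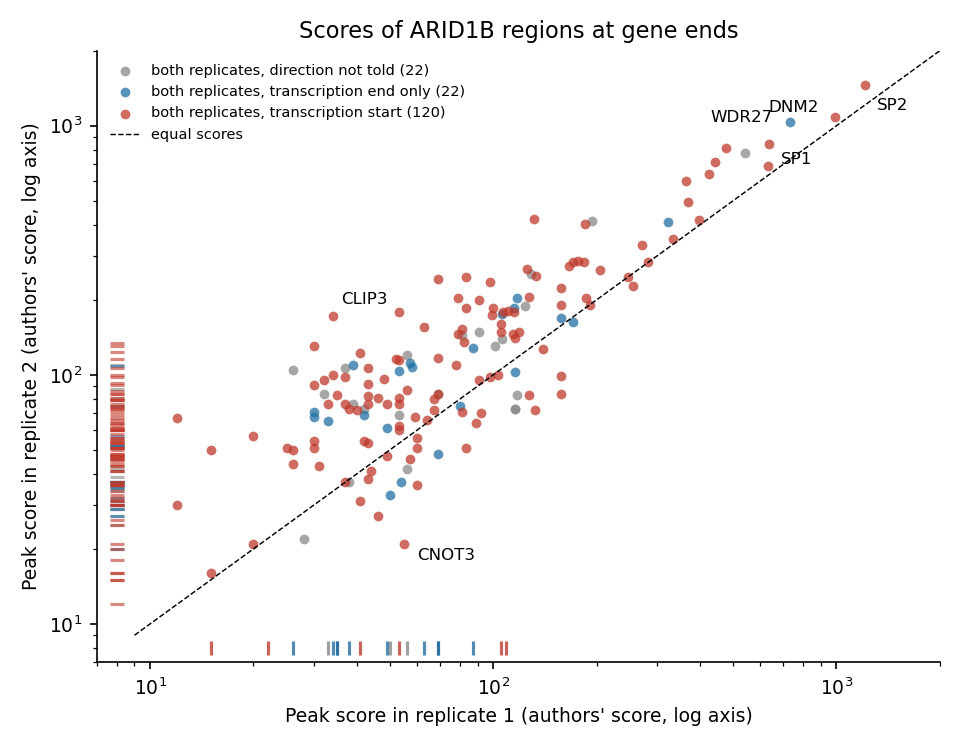
The authors' peak score in replicate 1 (x axis, log) against that in replicate 2 (y axis, log) for 164 gene-end regions of both replicates, coloured by the kind of end reached. Marks along the axes are regions of 1 replicate alone, and the dashed line marks equal scores; 128 of the 164 regions lie above it.

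Regions at transcription ends only were led by WDR27 (732 and 1038), with its centre 889 bp after the end of that gene. PSG4, a pregnancy-specific glycoprotein gene, followed with 322 and 412. ADGRF4 (158 and 169), ARHGDIA (117 and 203), and PTMA, the gene of prothymosin alpha (106 and 175), were also found in both replicates, as was TMEM107 (171 and 163). The region at TMEM107 also lay at SNORD118, the U8 small nucleolar RNA gene. Over all 48 such regions the median score was 57.5 in replicate 1 (32 regions) and 66.5 in replicate 2 (38 regions).

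Of the 5 widest regions 4 lay at transcription ends only. The widest region of the set, 1813 bp, lay at the end of ARHGDIA, followed by PSG4 (1493 bp), a region at P2RY11, its readthrough partner PPAN-P2RY11 and EIF3G (1438 bp), PTMA (1275 bp) and ACP4 (1091 bp). At ACP4 and at EIF3G 2 peaks of replicate 1 were joined by 1 peak of replicate 2, which was 952 bp wide at ACP4 and 1438 bp at EIF3G. At PSG4 each list held 1 peak, 1474 and 1407 bp wide, and at ARHGDIA 1496 and 1813 bp. Among regions of both replicates the median width was 578 bp for transcription ends only (22 regions) and 381 bp for starts (120 regions). Over regions of any support the medians were closer, at 334 bp (48 regions) and 319 bp (212 regions). The narrowest regions, 191 to 197 bp, were each found in 1 replicate, among them those of HSD17B13, RFX6, PGP and AIFM1.

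Of the 376 genes reached, 15 had several regions. EIF4A2, a translation initiation helicase gene, had 1 at its start (43 and 38) and 2 after its end (116 and 103 in both replicates, and 35 in replicate 1 alone). HOXA9 had its start region and 2 regions after its end, with scores of 30 in replicate 2 alone and 26 in replicate 1 alone. A region at the start and another at the end were found at 9 genes of known direction. Beside these 2 genes they were EIF4A1, the paralogue of EIF4A2, JUN, an AP-1 gene, HES1, GAS1, MAZ, PABPN1 and PKM. At JUN the end region was in both replicates (54 and 37) and the start region in replicate 2 alone (47). At HES1 the start region was in both and the end region in replicate 2 alone (52).

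Ribosomal protein genes were reached at their ends. Of 79 genes of cytosolic ribosomal proteins 16 had a region (20.3%, exact 95% interval 12 to 30.8), beside 1.90% of all protein-coding genes. Of these 16, 12 were reached at the transcription end, 1 at the start (RPS12, replicate 2 alone, score 30) and 3 had no direction at hand. The direction comes from the RefSeq promoter table. RPL41 had scores of 125 and 266, RPL4 53 and 178, RPL17 49 and 76, RPL13 69 and 48, RPL26 49 and 47, and RPS28 30 and 68. The centre lay after the end at 8 of the 12, and the range was from -1230 bp (RPL13, before the end) to 1154 bp (RPS28, after it). In 5 of the 12 the region also reached the start of another gene, as at ZC3H10 beside RPL41 and at SNAPC5 beside RPL4. The replicate 2 list reached 15 of the 79 and the replicate 1 list 9. Mitochondrial ribosomal protein genes had 0 of 77 (interval 0 to 4.68, which holds 1.90%).

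Other groups of abundant housekeeping products were reached at a mixture of ends, and their shares stand beside the 1.90% of all protein-coding genes. Genes of actin, tubulin and intermediate filaments had 6 of 53 (11.3%), of which TUBB4B, a tubulin gene, was in both replicates (116 and 140) and MYH10, VIM, TUBA1B, ACTB and TUBB in 1 replicate with scores of 34 to 63. Translation initiation and elongation factor symbols had 4 of 66 (6.06%), all in both replicates: EIF4A1, EIF4A2, EIF3G and EIF2AK3. The last encodes PERK, a kinase that acts on an initiation factor, and had scores of 131 and 422. Glycolysis genes had 2 of 18 (11.1%), GAPDH (69 and 84, at the end) and PKM (61 in replicate 2 alone at the start, and 51 at the end). Chaperone genes had 6 of 81 (7.41%), with DNAJB12 (53 and 104) and DNAJB14 (43 and 53, a region shared with H2AZ1) in both replicates. Oxidative phosphorylation genes had 2 of 87 (2.3%, interval 0.28 to 8.06). Splicing and hnRNP genes had 5 of 177 (2.82%, 0.923 to 6.47), led by KHSRP (369 and 494). The intervals of both these lists and of the translation (1.68 to 14.8) and glycolysis (1.38 to 34.7) lists hold the 1.90%. Those of the actin, tubulin and intermediate filament list (4.27 to 23) and the chaperone list (2.77 to 15.4) lie above it.

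Genes of transcription and chromatin control came next. HOX genes had 7 of 39 (17.9%, 7.54 to 33.5). In all 9 regions lay at them, 5 on chromosome 7 and 4 on chromosome 17, so the genes are neighbours. HOXB3 and HOXB5 shared a region. SP and KLF factors had 2 of 27, SP1 and SP2. Among 29 subunits of the BAF, PBAF and ncBAF complexes 3 were reached (10.3%, interval 2.19 to 27.4), beside 1.90% of all protein-coding genes. SMARCD2 was in both replicates (81 and 153), and ARID1A, which encodes the alternative subunit to ARID1B, and ACTB in replicate 2 alone (46 and 35). ACTB is also counted among the actin genes above. Other chromatin regulators had 6 of 81 (7.41%, interval 2.77 to 15.4). KDM4B, a histone demethylase gene (56 and 87), KAT6B, an acetyltransferase gene (57 and 46), and BRD2, a bromodomain gene (50 and 33), were in both, and KAT7, KMT2A and KAT6A in replicate 2 alone. Variant histones had 2 of 12 (16.7%, interval 2.09 to 48.4), H2AZ1 (43 and 53) and H2AZ2 (30 and 91). The H2AZ1 region lay 944 bp after the end of that gene and 223 bp from the start of DNAJB14. Replication-dependent histones had 0 of 69 (interval 0 to 5.21, which holds the 1.90%). Zinc-finger symbols had 9 of 588 (1.53%, interval 0.702 to 2.89, which holds the 1.90% of all genes), with ZNF687 (185 and 402) first. Forkhead, SOX, GATA and RFX factors had 5 of 109, and general transcription and Mediator genes 1 of 91 (TAF12, 105 and 160). The intervals of both these lists and of the SP and KLF list also hold the 1.90%.

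Membrane trafficking genes had 8 of 168 (4.76%, interval 2.08 to 9.17, beside 1.90% of all genes), 7 of them in both replicates. All 8 were reached at the start. Over all genes of known direction 238 had a region at the start and 89 at the end, so starts were common beyond this group too. The 376 genes reached also include genes without a known direction, which the 8 do not. The share at starts was not tested against that of other genes. Beside DNM2, TOM1L2 and RAB5B they included RAB22A (98 and 235), RAB11B (92 and 70) and COPZ2 (89 and 64). Immediate early and AP-1 genes had 3 of 39 (FOS, JUN and ID3), Notch, TGF-beta and BMP genes 2 of 38 (HES1 and SMAD6), and Wnt genes 1 of 44 (NLK, a kinase gene, 541 and 776, direction not at hand). Cholesterol synthesis genes had 2 of 24, HMGCS1 (34 and 100) in both and MSMO1 (58) in replicate 2 alone. Cell cycle and E2F genes had 3 of 73, and solute carriers 6 of 379 (1.58%). Hippo pathway genes had 0 of 28 (interval 0 to 12.3). Of lists of genes used mainly in other cell types, olfactory receptors had 0 of 389 (interval 0 to 0.944), keratin-associated proteins 0 of 94 (0 to 3.85), neuronal genes 0 of 24 (interval 0 to 14.2), hepatocyte markers 0 of 18 (0 to 18.5), and blood cell markers 1 of 20 (0.127 to 24.9). The intervals of the Hippo, neuronal, hepatocyte, blood cell and keratin-associated lists all hold the 1.90% of all genes. Those of the immediate early, Notch, Wnt, cholesterol, cell cycle and solute carrier lists hold it as well. These counts therefore do not set the lists apart. The blood cell marker, CD68, has its start in the region that also lies after the end of EIF4A1 (100 and 186).

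**Figure D4:**
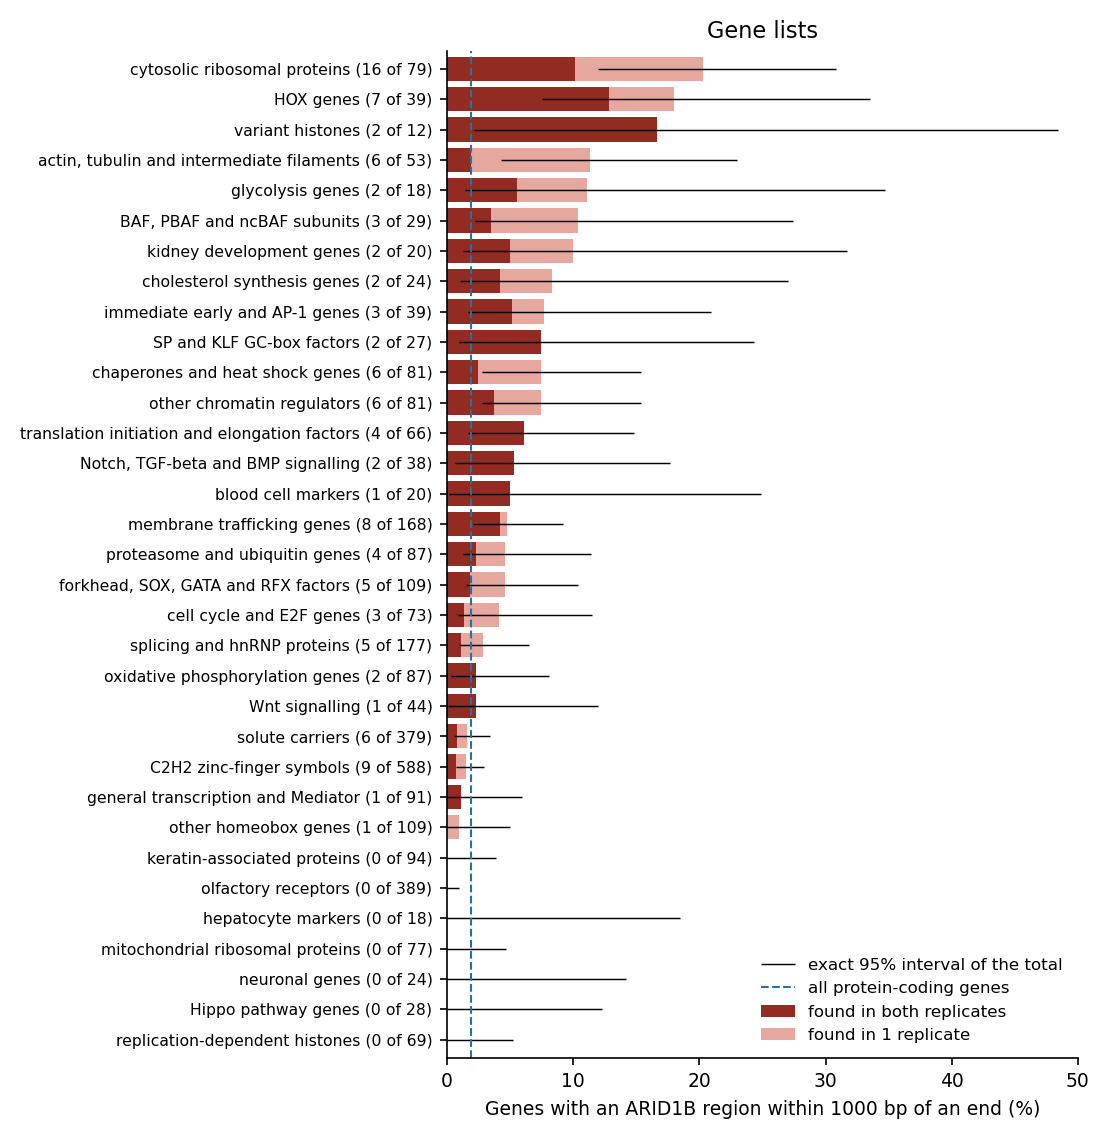
Share of each gene list with a region within 1000 bp of an end (x axis, %), split by support in both replicates or in 1, with the exact 95% interval of the total as a line. The dashed line marks the 1.90% of all protein-coding genes; 7 of 33 lists have no member with a region.

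Of the 303 regions 218 reached 1 gene, 80 reached 2 and 5 reached 3. In 6 of the 85 regions at several genes the second gene was a readthrough gene that contains the first, as at ANKHD1 and ANKHD1-EIF4EBP3 (171 and 284), which leaves 79 regions at separate genes. Among the 80 regions at 2 genes, 23 lay at a pair of starts, 22 at a start and an end, 11 at a pair of ends, and 24 could not be placed. Readthrough genes are counted here: 2 of the 23 pairs of starts (ANKHD1 and ATF7) and 2 of the 11 pairs of ends (both at HOXA9) are a gene with its readthrough gene. The highest-scoring pair of starts was TOM1L2 and DRC3, and others were NAIF1 and SLC25A25 (397 and 418), TBC1D10B and MYL11 (255 and 228), LRCH4 and FBXO24 (133 and 250), and TEPSIN and NDUFAF8 (114 and 146), the last with 6 CCAAT matches in each of their overlapping windows. SPAG7 and CAMTA2 (166 and 274) and ZC3H10 with RPL41 were pairs of a start and an end. The 5 regions at 3 genes lay at PPP1R13L, POLR1G and ERCC1 (43 and 106), at ERAP1, LNPEP and an uncharacterized gene (42 and 54), at SPSB3, NUBP2 and EME2 (33 and 76), at EIF3G with P2RY11 (32 and 84), and at POLG2, DDX5 and MILR1 (47 in replicate 2 alone).

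Regions at 1 gene and at several genes were compared by width and score. The median width was 319 bp for 1 gene and 325 bp for several. The median score in replicate 1 was 69 (137 regions) against 51 (46 regions), and in replicate 2 it was 73 (203 regions) against 66 (81 regions). Neither score difference kept its sign when the window was narrowed to 500 bp. Pairs of starts had medians of 112 in replicate 1 (12 regions) and 98 in replicate 2 (23 regions), pairs of a start and an end 46 (13 regions) and 62 (22 regions), and pairs of ends 34 (6 regions) and 31.5 (8 regions). These groups are small and overlap: the quartiles of the pairs of starts and of ends were 96.5 to 192 and 30.8 to 37.2 in replicate 1, where the pairs of ends reached 116, and 58.5 to 178 and 29.8 to 66.5 in replicate 2.

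The replicates did not contribute evenly at gene ends. Of the 303 regions 39.6% (exact 95% interval 34.1 to 45.4) were in replicate 2 alone and 6.27% (3.82 to 9.62) in replicate 1 alone. Of 1685 regions over 10 kb from every gene end 17.7% were in replicate 2 alone and 23.7% in replicate 1 alone, and of 301 regions 1 to 10 kb away 27.9% and 18.9%. The shares found in both were close, at 54.1%, 58.6% and 53.2%. Within the gene-end set, start regions had 86 of 212 in replicate 2 alone and 6 in replicate 1 alone, while regions at transcription ends only had 16 and 10 of 48. The highest scores in replicate 2 alone were at RAB4B and MIA (134), PNRC1 (130), SLC35E2B (123), HSPB6 and PROSER3 (116), CYP1B1 (109), RPS19 (108), CCNI (106) and TMEM160 (100). Those in replicate 1 alone were at ZNF609 (109), PRSS23 (105), FBXL20 (87), LTN1 (69) and XDH (69).

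**Figure D5:**
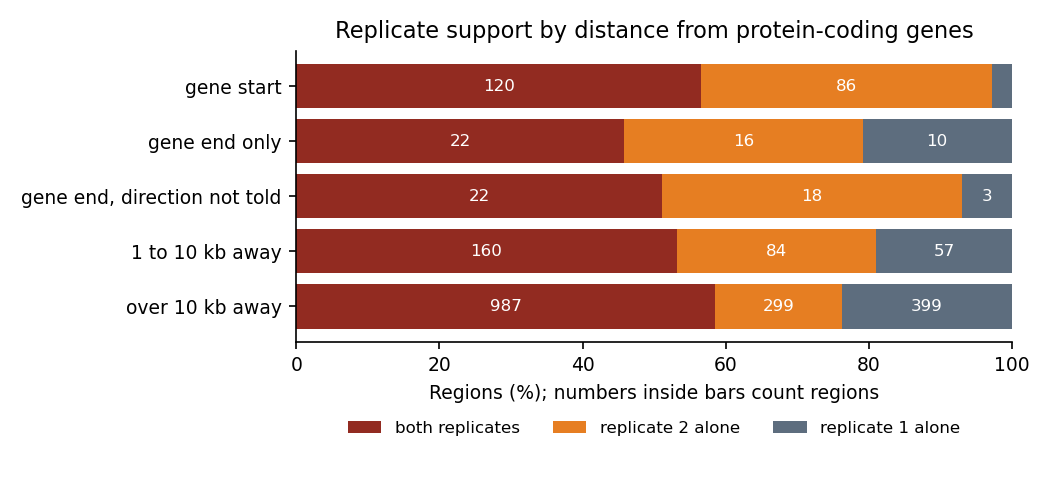
Share of regions (x axis, %) found in both replicates, in replicate 2 alone or in replicate 1 alone, for gene starts, transcription ends only, gene ends of unknown direction, regions 1 to 10 kb away and regions over 10 kb away. Numbers inside the bars count regions; replicate 1 alone holds 6 of 212 regions at starts and 399 of 1685 over 10 kb away.

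Regions of both replicates showed the same lean in score and in width. At gene ends replicate 2 had the higher score in 128 of 164 regions (78.0%, exact 95% interval 70.9 to 84.1), against 55% of 160 regions 1 to 10 kb away and 45.8% (42.7 to 49) of 987 regions over 10 kb away. The peak was wider in replicate 2 at 136 of the 164 (82.9%, 76.3 to 88.3), at 107 of the 160 (66.9%, 59 to 74.1) and at 50.8% of the 987, so regions 1 to 10 kb away had part of the lean in width. At starts it was wider in 104 of 120, and at transcription ends only in 13 of 22. FOS (41 and 122), EIF2AK3 (131 and 422) and RAB22A (98 and 235) had the lean, and CNOT3 (55 and 21), HOXA4 (127 and 83) and HES1 (140 and 127) went the other way. Score scales are not stated and 2 libraries give no measure of their spread, so no test was made, and a difference between the libraries and a difference between the cultures cannot be told apart.

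Scores and widths of the gene-end set were set beside those of the other regions. Its median score was 67 in replicate 1 and 72.5 in replicate 2, where all other regions had 74 and 75, and its median width was 320 bp against 302 bp. The share at gene ends varied by chromosome. On chromosome 19, which is rich in genes, 53 of 76 regions (69.7%) lay at gene ends, reaching 5.11% of its 1410 protein-coding genes, and 42 of the 53 reached a start. On chromosome 17 it was 35 of 134 (26.1%) and 3.98% of genes. Chromosome 13 had 0 of 64 regions at a gene end, chromosome 10 had 7 of 138 (5.07%) and chromosome 3 10 of 170 (5.88%).

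Some regions also lay within 1000 bp of an end of a non-coding gene. Long non-coding RNA genes were reached by 63 of the 303 (20.8%), among them SP2-DT, which lies at the SP2 region, ANKHD1-DT and EIF2AK3-DT. Small nuclear RNA genes, parts of the splicing and histone-message machinery, were reached by 5, at C12orf57 (RNU7-1), TAF12 (RNU11), WDR74 (RNU2-2), POLDIP3 (RNU12) and SIRT4 (RNU4-2). Small nucleolar RNA genes were reached by 5 regions, among them those at RPS12, RPL10 and RPS2, and microRNA genes by 12. The WDR27 region also lay at a long non-coding RNA gene. At any of these regions the peak cannot be assigned to the protein-coding gene or to the non-coding gene.

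Regions lay close to the limit of 1000 bp on both sides. The last regions inside it lay 948 bp from RPL13, 951 bp from HOXA9 with its readthrough gene, and 973 bp from HSD17B13. The first outside lay 1040 bp from KLF6 (49 and 91), 1064 bp from IGBP1C (258 and 290) and 1076 bp from TANC1 (49 in replicate 1 alone).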

How the data were processed

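ARID1B was profiled by ChIP-seq in 2 replicates with 1 input. Build hg38 and 3 tools are named, per the submitters' processing notes: MACS2 2.1.2, the aligner Bowtie2 2.3.4.1, and bcl2fastq 2.20.0.422. Not given in the sources used here were peak thresholds, duplicate handling and the use of the input. The authors deposited 1 peak list per replicate with a whole-number score per peak of unstated scale, used here only to order and describe peaks. Depth is unknown, and duplicates, if kept, would raise scores.

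Starts were converted to count from 1, and peaks overlapping by 1 bp were joined; the higher score of a list was kept where 2 of its peaks were joined. In each list 2 peaks lay outside chromosomes 1 to 22 and X. Genes came from RefSeq (GRCh38.p14), without genes of unlocalized or alternate sequences. Directions and promoter sequences came from the RefSeq promoter table, which matched 15813 of 19821 protein-coding genes. For 1 promoter per gene the annotated start nearest to the outermost was taken. Motifs, the 33 gene lists and the members were chosen with earlier results of these data known, so nothing was tested; shares carry exact Clopper-Pearson 95% intervals for counting error only.

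Named were the first 25 regions of both replicates by the lower score percentile, the first 8 of replicate 2 alone and 5 of replicate 1 alone, up to 6 members per list, the first 10 regions at 2 genes, all at 3, the widest and narrowest 5, and 3 on each side of the limit. A selection of these is printed; genes with several regions, contrasts, other regions at ends and opposite leans were chosen after their values were seen. Region joining and gene-end calls were tested on simulated data. Some items are not reported here. Python 3.11.15.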

Additional observations from a re-analysis of the deposited data

How the results depend on the processing

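Depth is unknown and 2 lists give no spread, so these values show dependence on choices only. The gene-end set held 303 regions; it held 144 with only peaks at or above the median score of their list, and from 184 to 284 with 1 list left out (184 from replicate 1 alone). Genes reached were 376, 186 at that score and from 227 to 357 with 1 list left out. At that score 107 regions reached a start and 17 an end only, and with a 500 bp window 28 an end only. The share found in replicate 1 alone was 3.70% with 500 bp and 10.4% with 50% overlap of each peak, where 47.9% were in both.

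The comparison of regions at several genes with those at 1 gene was not stable. The difference in median width (several minus 1) was 6 bp as reported, 48.5 bp with 500 bp, 16 bp with 2000 bp, -9 bp measured from the middle of regions, 45 bp at or above the median score, 10 bp with 50% overlap and from 14 to 38 bp with 1 list left out. The difference in replicate 1 score was -18 as reported, 1 with 500 bp, 3 from the middle and 7 at or above the median score. The difference in replicate 2 score was -7 as reported, 6 with 500 bp, -3 with 2000 bp and 2.5 at or above the median score. Leaving out readthrough genes, an alternative added after the data were seen, gave 7 bp, -20 and -5.5.

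Gene-end regions minus other regions in median width was 18 bp, -1 bp at or above the median score and from -0.5 (without replicate 2) to 16.5 bp with 1 list left out. In replicate 1 score it was -7, and -2 at or above the median score; in replicate 2 score it was -2.5, and 7 at or above the median score. The cause of these changes was not tested. The CCAAT share of covered windows was 74.0%, and 79.8% with regions of both replicates, 73.0% with every annotated start and 70.6% with windows of 1 gene, the latter 2 added after the data were seen; the GC box share was between 76.2 and 78.9%. Every annotated start gave 32.7% for CCAAT and 53.7% for the GC box over all windows. No paired analysis was possible because there is 1 group of replicates.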
